A study of Rattus norvegicus with 12 samples.

Results

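The vesicle traffic and ER to Golgi genes are those whose symbols name a coat, adaptor, tether, small GTPase, SNARE, sorting nexin or ESCRT component of the secretory and endocytic routes. They were chosen by the start of the symbol (such as Sec, Tmed, Cop, Rab, Arf, Stx, Snx, Ap1 to Ap5, Tbc1d, Chmp or Vps) and by a total of at least 60 reads over the 12 libraries. This rule uses no difference between groups, but it was set with earlier results of these data known. Of 32754 genes in the count tables, 1998 could be named, 71 of these carried such a symbol and 61 had 60 reads or more. Names came from the first part of a table in identifier order, so the 61 are the traffic genes among the named genes and not all those of these cells. Just above that limit were Ap4s1 with 74 reads and Rab3gap1 and Arl4a with 80 each, and just below it Trappc6b with 56, Vps8 with 53 and Stxbp6 with 41. The edgeR filter on low counts kept 58 of the 61 and left out Arl4a, Tbc1d25 and Ap4s1, which had at most 15 reads in any library and are given here without a test. A symbol is not a function. Among the 61, Snapc2 is a subunit of a complex that activates transcription of small nuclear RNA genes, Arl6ip4 is a splicing-related protein, Arl14ep and Arl6ip6 are named after Arl proteins, and Sec14l1 and Sec14l2 are lipid-binding proteins of the SEC14 family. These 6 were kept as a group of their own.

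RCS is a chondrocyte line from a rat chondrosarcoma. The 4 groups were WT RCS and FGFR3/4KO RCS, a CRISPR/Cas9 clone lacking the FGF receptors FGFR3 and FGFR4, each kept overnight with FGF18, a growth factor of cartilage, or with vehicle (named untreated in the labels), in medium with serum, and 3 biological replicates were sequenced per group. The FGF18 concentration is 50 µg/ml in the labels and 50 ng/ml in the study's methods. All knockout libraries come from 1 clone, so a difference between genotypes and a difference between that clone and the parental cells cannot be told apart. The QuantSeq 3′ mRNA protocol places reads near the 3′ end of a transcript, so that CPM (counts per 1000000 reads, normalized by TMM) does not scale with transcript length. A library held 373964 to 1196647 reads on genes. Before TMM normalization 3 reads correspond to 2.51 to 8.02 CPM, a floor that covers counting error only. Normalized values lie slightly off this scale, since the TMM factors ran from 0.91 to 1.07. FGFR3/4KO vehicle replicate 2 was the shallowest library. FGFR3/4KO FGF18 replicate 1 stood apart from its group, with a chi-square statistic of 4.62 and 4.65 times its degrees of freedom against the other two, which differed from each other by 2.0 times. The widest pair of all was in WT RCS with FGF18, where replicates 1 and 3 differed by 5.67 times and the other pairs by 2.99 and 3.55, against 1.56 to 1.87 in the vehicle groups, a ratio that also grows with depth. The share of reads not counted because of low alignment quality was 77.0 to 79.8% in WT RCS and 71.2 to 74.6% in FGFR3/4KO RCS, a difference that runs with genotype and whose part in the genotype results was not tested. Fgfr3 and Fgfr4 were not among the named genes and were not analysed here. Of the 6 chondrocyte markers, Sox9, Col11a2, Mia and Fmod ranged from 269 to 2533 CPM, whereas Chad ranged from 1.1 to 19.7 CPM and Epyc was too low to be tested.

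Proteins made for export enter the ER through the Sec61 translocon, leave it in carriers coated by COPII and reach the Golgi, from which COPI carriers, p24 proteins and the KDEL receptors bring machinery and ER residents back. Rab and Arf GTPases mark each membrane, tethers and SNAREs let carriers dock and fuse, and clathrin adaptors, sorting nexins and ESCRT complexes sort cargo between the plasma membrane, endosomes and lysosomes. Chondrocytes depend on this route because they secrete large amounts of collagen and proteoglycan, and inherited loss of some of its components, such as the COPII subunit SEC23A or the golgin encoded by TRIP11, gives disorders of the skeleton. Transcription factors of the MiT/TFE family, which act on lysosome and autophagy genes, bind a DNA element called CLEAR, built on the letters CACGTG.

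The traffic genes spanned a wide range of levels. Their mean over the 12 libraries ran from 7.47 CPM for Rab3gap1 to 499.9 CPM for Cltc, the heavy chain of clathrin, with a median of 44.8 and quartiles of 27.1 and 111. A mean of 100 CPM or more was reached by 19 genes, and 14 were under 20 CPM. The summed level of the 61 genes lay between 5385 and 5512 CPM in WT RCS with vehicle, 5493 and 6604 with FGF18, 5773 and 6127 in FGFR3/4KO RCS with vehicle and 6099 and 6867 with FGF18. The ranges of WT RCS with vehicle and with FGF18 overlapped, as did those of FGFR3/4KO RCS.

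With FGF18, 9 of the 58 tested traffic genes passed an FDR of 0.05 in WT RCS (15.5%), against 25.7% of all 7378 genes tested. Snx12, Sec14l2, Ap1s1, Arf6 and Snx8 rose (background 12.9%), and Tbc1d31, Arl1, Stx17 and Kdelr2 fell (background 12.8%). The median log2 fold change of the 58 was 0.11 and that of all genes 0.02. Libraries with FGF18 and with vehicle did not overlap for 21 of the 58 (11 higher, 10 lower), where the background was 39.6%. No traffic gene passed in FGFR3/4KO RCS, and none of the 7378 genes did (0%) by edgeR or, of the traffic genes, by DESeq2. At an unadjusted p under 0.05 there were 2 traffic genes, Rab5b and Tbc1d15, against 6.48% of all genes. FGF18 and vehicle libraries did not overlap for 7 (background 12.7%), of which Cltc, Exoc1, Rab5b, Vamp4 and Yipf6 were higher and Tbc1d15 and Vps37b lower, and the median was 0.07. In these bulk samples fewer cells of a kind and less RNA per cell cannot be told apart. The levels of Col1a1, Lum, Pdgfra and Thy1, markers of fibroblasts or osteoblasts, were summed. In WT RCS this sum was 24.9 to 43.1 CPM with FGF18 and 17.4 to 22.0 CPM with vehicle. Flt1, an endothelial gene, had no read in the 3 WT vehicle libraries. The WT libraries with FGF18 held 2 to 4 reads of Flt1 (1.91 to 3.70 CPM), around the floor of 3 reads. No knockout library held more than 1 read of Flt1, under either treatment. Flt1 was not tested, and counts this low carry a large counting error. Lum had no read in 8 of the 12 libraries. Of the 4 fibroblast or osteoblast markers only 1 was tested. It changed by -0.57 (adjusted p = 0.282) in WT RCS, against the direction of the sum, with every FGF18 library below every vehicle library. Of the 5 tested chondrocyte markers, Mia rose by 0.37 ± 0.11 (adjusted p = 0.0158) and Fmod changed by -0.57 ± 0.13 (adjusted p = 0.00206) on the log2 scale, and 3 did not pass. The part of such cells and of the chondrocyte markers in the results was not tested. Below, a change or difference of a gene is a log2 fold change ± its SE, with p from edgeR's quasi-likelihood test adjusted over all 7378 genes, and the 3 values of a group are CPM of replicates 1, 2 and 3.

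**Figure D1:**
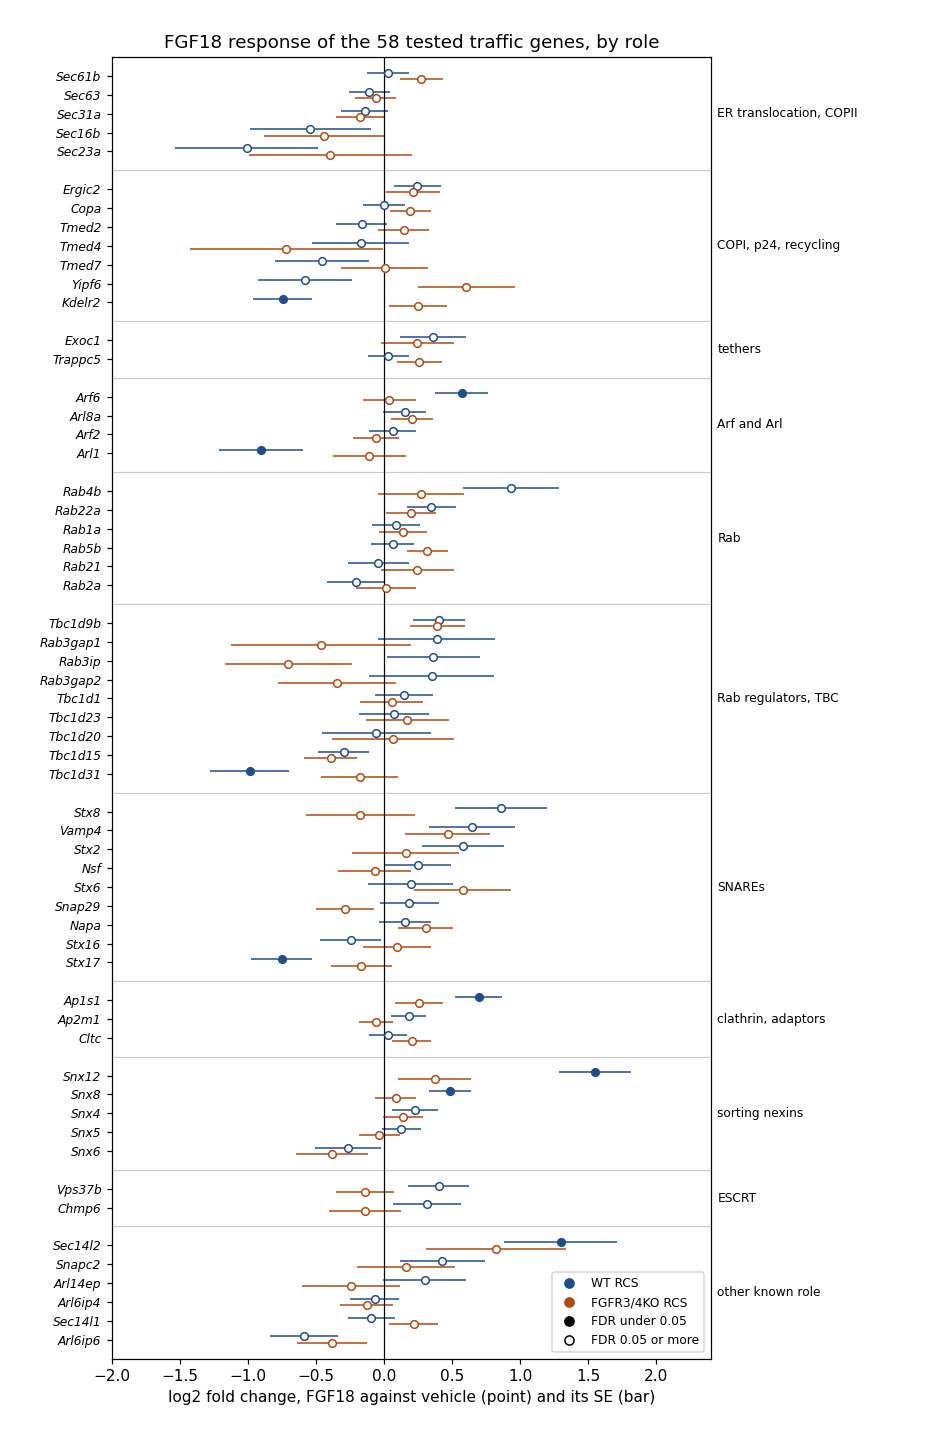
Log2 fold change with FGF18 against vehicle (x axis) for the 58 tested traffic genes (y axis, grouped by role), in WT RCS (blue) and FGFR3/4KO RCS (orange), with bars of 1 SE and filled points for an FDR under 0.05. The 9 filled points are all from WT RCS, from Snx12 at 1.55 to Tbc1d31 at -0.99.

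The start regions of 4 of the genes that passed with FGF18 are shown, because Snx12 and Ap1s1 were the rises that no alternative setting removed, Snx8 was the only riser whose start region holds CACGTG, and Stx17 was one of the 4 that fell. Each line gives 250 bases before and 50 bases from the start of the gene, 5′ to 3′, from RefSeq's GRCr8 assembly, with CACGTG in capitals. The places are chrX:70396847-70397146, minus strand, for Snx12, chr12:25261786-25262085, plus strand, for Ap1s1, chr12:19365505-19365804, plus strand, for Snx8 and chr5:67241493-67241792, plus strand, for Stx17.
Snx12: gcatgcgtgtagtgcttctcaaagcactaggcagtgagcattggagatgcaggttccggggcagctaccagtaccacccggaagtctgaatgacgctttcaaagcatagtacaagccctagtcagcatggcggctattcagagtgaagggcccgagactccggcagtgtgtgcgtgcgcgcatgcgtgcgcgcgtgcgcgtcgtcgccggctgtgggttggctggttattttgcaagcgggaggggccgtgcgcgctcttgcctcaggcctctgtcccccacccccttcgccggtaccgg
Ap1s1: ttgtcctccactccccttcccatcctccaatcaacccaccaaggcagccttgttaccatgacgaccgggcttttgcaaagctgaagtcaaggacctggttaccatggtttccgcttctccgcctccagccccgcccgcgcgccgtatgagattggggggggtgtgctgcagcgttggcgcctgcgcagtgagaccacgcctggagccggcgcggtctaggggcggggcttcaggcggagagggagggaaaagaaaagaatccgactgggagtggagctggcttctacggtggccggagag
Snx8: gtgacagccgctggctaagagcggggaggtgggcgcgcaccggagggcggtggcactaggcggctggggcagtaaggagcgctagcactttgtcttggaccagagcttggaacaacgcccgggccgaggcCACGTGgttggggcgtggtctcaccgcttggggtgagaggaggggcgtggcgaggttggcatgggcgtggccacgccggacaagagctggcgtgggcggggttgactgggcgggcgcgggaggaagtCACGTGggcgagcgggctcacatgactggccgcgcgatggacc
Stx17: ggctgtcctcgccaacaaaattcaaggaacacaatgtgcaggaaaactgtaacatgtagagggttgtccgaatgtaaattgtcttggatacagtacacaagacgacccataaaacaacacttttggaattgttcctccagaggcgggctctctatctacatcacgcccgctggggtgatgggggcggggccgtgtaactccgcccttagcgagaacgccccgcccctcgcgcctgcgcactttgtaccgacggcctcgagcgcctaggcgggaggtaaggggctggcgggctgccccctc
Such a region was at hand for 56 of the 61 genes, and the exceptions were Chmp6, Kdelr2, Rab22a, Rab2a and Tbc1d31. Searched on both strands, CACGTG was found in 11 of the 56 (19.6%): Arl6ip4, Exoc1, Napa, Nsf, Rab21, Snap29, Snx8, Stx6, Tbc1d15, Tbc1d20 and Vps37b. The share was 12% of the 1121 named and tested genes with a region and 6.42% of all 33469 regions. The longer form TCACGTGA, which contains CACGTG, was in Rab21, Snap29 and Stx6 (5.36% of the 56, 2.32% of the named and tested genes and 0.777% of all regions). Of the 5 genes that rose, 1 held CACGTG, namely Snx8 at positions -120 and 7 relative to the start, and of the 2 that fell and had a region, 0 did. The ER stress response element, CCAAT and CCACG with 9 bases between them, was in none of the 56, in 0.268% of the named and tested genes and in 0.0657% of all regions. The AP-1 letters TGACTCA were in Arl14ep, Rab4b and Tbc1d9b, 5.36% of the 56, against 3.57% of the named and tested genes and 4.63% of all regions. A match describes letters in a window and is not evidence of binding.

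In the entry and COPII group, none of the 5 genes passed with FGF18, and their log2 fold changes in WT RCS ran from -1.01 to 0.03. Sec61b, a subunit of the translocon, changed by 0.03 ± 0.15 (adjusted p = 0.913) on the log2 scale and Sec31a, an outer coat subunit of COPII, by -0.14 ± 0.17 (adjusted p = 0.596). Sec23a, the inner coat subunit, had the lowest value, -1.01 ± 0.52 (adjusted p = 0.168), at 0 to 17.4 CPM. Sec16b, an organizer of ER exit sites, was as scarce, at 5.74 to 19.7 CPM. Sec63, which works with the translocon and recruits the chaperone BiP, was the most abundant of the 5. It measured 213, 212 and 266 CPM in WT RCS with vehicle and 207, 209 and 229 CPM with FGF18. In FGFR3/4KO RCS it measured 375, 320.1 and 299 CPM with vehicle and 395, 294 and 267 CPM with FGF18. All 6 knockout libraries lay above all 6 WT libraries. The knockout against WT difference was 0.52 ± 0.16 (adjusted p = 0.0242) with vehicle and 0.56 ± 0.15 (adjusted p = 0.00470) with FGF18. The vehicle call was lost without WT vehicle replicate 1 (0.47, adjusted p = 0.102), WT vehicle replicate 2 (0.46, adjusted p = 0.109) or FGFR3/4KO vehicle replicate 1 (0.42, adjusted p = 0.154).

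Among the 7 genes of COPI transport, p24 cargo receptors and ER to Golgi recycling, Kdelr2 passed with FGF18 in WT RCS. Kdelr2 encodes a KDEL receptor, which returns ER chaperones from the Golgi. In WT RCS it was at 84.1, 65.3 and 89.9 CPM with vehicle and at 39.3, 55.5 and 49.3 CPM with FGF18, so every FGF18 library was below every vehicle library. In FGFR3/4KO RCS it was at 84.3, 56.7 and 77.8 CPM with vehicle and 115, 91.3 and 65.4 CPM with FGF18, and these groups overlapped. The change was -0.75 ± 0.22 (adjusted p = 0.0115) in WT RCS and 0.25 ± 0.21 (adjusted p = 0.848) in FGFR3/4KO RCS, and the difference between them, the interaction, was 1.0 ± 0.30 (adjusted p = 0.0317). The WT call was lost without WT vehicle replicate 3 (-0.64, adjusted p = 0.0824) or WT FGF18 replicate 1 (-0.61, adjusted p = 0.0626). The interaction was lost by DESeq2 (1.03, adjusted p = 0.0641) and in 7 of 12 fits that left out 1 library, with values of 0.85 to 1.07 and adjusted p of 0.0540 to 0.105, and kept without WT vehicle replicate 2, WT FGF18 replicate 2, WT FGF18 replicate 3, FGFR3/4KO vehicle replicate 1 or FGFR3/4KO FGF18 replicate 3. Without FGFR3/4KO FGF18 replicate 1, the library that stood apart, it was 0.85, adjusted p = 0.0624.

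The other 6 genes of this group did not pass with FGF18, and 5 of the 7 passed between the genotypes with FGF18. Copa, the alpha subunit of the COPI coat, was at 171, 170.0 and 136 CPM and 159.9, 134 and 182 CPM in WT RCS with vehicle and FGF18, and at 253, 215 and 240.0 CPM and 311, 267 and 239.5 CPM in FGFR3/4KO RCS. The knockout libraries were higher throughout, by 0.59 ± 0.16 (adjusted p = 0.0116) with vehicle and 0.78 ± 0.15 (adjusted p = 1.76e-04) with FGF18, and the vehicle call was lost without WT vehicle replicate 3 (0.48, adjusted p = 0.0944), FGFR3/4KO vehicle replicate 1 (0.54, adjusted p = 0.0663) or FGFR3/4KO vehicle replicate 3 (0.58, adjusted p = 0.0503). Tmed4, a p24 protein, lay the other way. It was at 27.5, 21.8 and 25 CPM and 17.2, 17.2 and 33.3 CPM in WT RCS and at 3.06, 0 and 8.77 CPM and 3.95, 3.55 and 1.84 CPM in FGFR3/4KO RCS, where 1 library had no read of it. The knockout difference was -2.25 ± 0.51 (adjusted p = 0.00294) with vehicle and -2.79 ± 0.50 (adjusted p = 8.16e-05) with FGF18, the furthest from 0 of any traffic gene in both comparisons. Several knockout values are at or below the floor of 3 reads, so these folds carry a large counting error. With vehicle the difference was -3.56 without FGFR3/4KO vehicle replicate 3, the highest of the knockout libraries, and -1.95 without FGFR3/4KO vehicle replicate 2, the one with no read.

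Ergic2, a protein that cycles between the ER and the Golgi, was also lower in FGFR3/4KO RCS. It measured 135, 121 and 123 CPM and 119, 147 and 186 CPM in WT RCS with vehicle and FGF18, and 95, 62.3 and 74.5 CPM and 88.3, 105 and 80.1 CPM in FGFR3/4KO RCS, with no overlap between the genotypes. The difference was -0.68 ± 0.20 (adjusted p = 0.0194) with vehicle and -0.71 ± 0.18 (adjusted p = 0.00236) with FGF18, the first of which was lost without WT vehicle replicate 1 (-0.63, adjusted p = 0.0688), FGFR3/4KO vehicle replicate 2 (-0.58, adjusted p = 0.0769) or FGFR3/4KO vehicle replicate 3 (-0.63, adjusted p = 0.0981). Kdelr2 was higher in FGFR3/4KO RCS with FGF18, by 0.90 ± 0.21 (adjusted p = 0.00141), but not with vehicle, -0.10 ± 0.22 (adjusted p = 0.818). The first of these comparisons and the FGF18 fall of Kdelr2 use the same WT FGF18 libraries. Tmed7, another p24 protein, also passed with FGF18 only, and its call was lost by DESeq2 (0.91, adjusted p = 0.100), with only the groups compared (0.91, adjusted p = 0.0522) and without WT FGF18 replicate 2 (0.86, adjusted p = 0.0812), FGFR3/4KO FGF18 replicate 2 (0.76, adjusted p = 0.121) or FGFR3/4KO FGF18 replicate 3 (0.71, adjusted p = 0.144). Tmed2, the p24 protein with the highest level here at 72.1 to 136 CPM, and Yipf6, a Golgi membrane protein at 7.65 to 21.1 CPM, passed in no comparison.

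Of the 2 tethers tested, Trappc5, a core subunit of the TRAPP complexes that tether carriers and activate Rab1, differed between genotypes. WT RCS had 306, 328 and 332 CPM with vehicle and 321, 344 and 320.3 CPM with FGF18, and FGFR3/4KO RCS had 184, 204 and 145 CPM and 272, 168 and 191 CPM. Every knockout library was below every WT library. The difference was -0.89 ± 0.17 (adjusted p = 4.01e-04) with vehicle and -0.66 ± 0.15 (adjusted p = 0.00145) with FGF18. FGF18 changed it by 0.03 ± 0.15 (adjusted p = 0.911) in WT RCS. Exoc1, a subunit of the exocyst that tethers carriers at the plasma membrane, ranged from 23 to 43.1 CPM and passed in no comparison.

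The Arf and Arl GTPases held a riser and a faller with FGF18 in WT RCS. Arf6, which acts in endocytosis and recycling at the plasma membrane, was at 52.2, 50.3 and 42 CPM with vehicle and 85.3, 59.3 and 66.5 CPM with FGF18, a change of 0.57 ± 0.19 (adjusted p = 0.0307). Arl1, which recruits golgins to the trans-Golgi, was at 33.3, 25.8 and 27 CPM and 14.8, 20.1 and 9.86 CPM, a change of -0.90 ± 0.31 (adjusted p = 0.0305). Neither pair of groups overlapped. In FGFR3/4KO RCS the changes were 0.04 ± 0.20 (adjusted p = 0.984) for Arf6 and -0.11 ± 0.27 (adjusted p = 0.961) for Arl1, and the interactions did not pass (-0.53 ± 0.28 and 0.79 ± 0.41, adjusted p = 0.253 and 0.246). DESeq2 called neither (adjusted p = 0.133 for Arf6 and 0.0914 for Arl1). With edgeR, Arf6 was lost with no filter (0.55, adjusted p = 0.0803), with the filter of 1 CPM in 3 libraries (0.55, adjusted p = 0.0620), with only the groups compared (0.55, adjusted p = 0.0507) and without WT vehicle replicate 2 (0.60, adjusted p = 0.0613), WT vehicle replicate 3 (0.46, adjusted p = 0.163) or WT FGF18 replicate 1 (0.39, adjusted p = 0.203), and Arl1 in 4 of 6 fits that left out 1 library, with values of -0.73 to -0.95 and adjusted p of 0.0643 to 0.106, and kept without WT vehicle replicate 2 or WT FGF18 replicate 2.

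With FGF18 present, Arl1 was higher in FGFR3/4KO RCS, at 34.3, 45.2 and 30.4 CPM against 14.8, 20.1 and 9.86 CPM, by 1.27 ± 0.29 (adjusted p = 0.00111). With vehicle its difference was 0.48 ± 0.29 (adjusted p = 0.291). The genotype comparison with FGF18 and the fall of Arl1 with FGF18 use the same WT FGF18 libraries. Arl8a, the GTPase that moves lysosomes along microtubules, was the most abundant of these GTPases. It stood at 186, 167 and 185 CPM and 159, 215 and 227 CPM in WT RCS and at 253, 218 and 274 CPM and 340.1, 280.1 and 251 CPM in FGFR3/4KO RCS, higher by 0.49 ± 0.16 (adjusted p = 0.0408) with vehicle and 0.54 ± 0.15 (adjusted p = 0.00668) with FGF18. The vehicle call was lost by DESeq2 (0.49, adjusted p = 0.0677), with a replicate block (0.48, adjusted p = 0.0684) and in 5 of 6 fits that left out 1 library, with values of 0.40 to 0.51 and adjusted p of 0.0833 to 0.187, and kept without FGFR3/4KO vehicle replicate 2. The FGF18 call was lost without WT FGF18 replicate 1 (0.39, adjusted p = 0.0592). Arf2, a coat-recruiting Arf of the Golgi at 80.4 to 141 CPM, passed in no comparison. Arl4a, not tested, was at 2.64 to 17.2 CPM.

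None of the 6 Rab GTPases passed with FGF18 in either genotype. Rab4b, which acts in recycling from early endosomes, came nearest in WT RCS, with 20.3, 12.2 and 13 CPM with vehicle and 18.9, 37.3 and 30.8 CPM with FGF18. These ranges overlapped, and the change was 0.93 ± 0.35 (adjusted p = 0.0515). Rab22a, a GTPase of early and recycling endosomes, was the most abundant Rab at 257 to 524 CPM and changed by 0.35 ± 0.18 (adjusted p = 0.166). Rab1a and Rab2a, which act between the ER and the Golgi, changed by 0.09 ± 0.18 and -0.21 ± 0.21 (adjusted p = 0.760 and 0.516).

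Between genotypes, Rab5b and Rab21 passed, each under 1 treatment. Rab5b, a GTPase of early endosomes, was at 98.4, 127 and 121 CPM in WT RCS and 192, 189 and 185 CPM in FGFR3/4KO RCS with FGF18, higher by 0.71 ± 0.15 (adjusted p = 4.14e-04). With vehicle it was at 113, 101 and 116 CPM and 147, 133 and 168 CPM, a difference of 0.46 ± 0.16 (adjusted p = 0.0538). The genotypes did not overlap under either treatment. Rab21, which carries integrins through early endosomes, was at 42, 58.5 and 54 CPM in WT RCS and 24.5, 28.3 and 34 CPM in FGFR3/4KO RCS with vehicle, a difference of -0.81 ± 0.26 (adjusted p = 0.0354). That call was lost by DESeq2 (-0.81, adjusted p = 0.114), with no filter (-0.81, adjusted p = 0.0526) and in 5 of 6 fits that left out 1 library, with values of -0.69 to -0.99 and adjusted p of 0.0524 to 0.158, and kept without WT vehicle replicate 1.

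Of the 9 tested Rab regulators and TBC proteins, Tbc1d31 passed with FGF18 in WT RCS. It carries the TBC domain found in GTPase-activating proteins for Rabs and is known from centriolar satellites. Its levels were 30.4, 39.4 and 39.97 CPM with vehicle and 20.5, 15.3 and 19.7 CPM with FGF18, all 3 of the latter below all 3 of the former, a change of -0.99 ± 0.29 (adjusted p = 0.0120). The levels in FGFR3/4KO RCS overlapped, at 38.3, 22.7 and 38.4 CPM and 25, 41.7 and 24 CPM. The change there was -0.18 ± 0.28 (adjusted p = 0.928), and the interaction did not pass, 0.81 ± 0.40 (adjusted p = 0.230). The WT call was lost without WT vehicle replicate 3 (-0.92, adjusted p = 0.0612) or WT FGF18 replicate 2 (-0.88, adjusted p = 0.0532).

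Rab3gap1 and Rab3ip, both at low levels, were lower in FGFR3/4KO RCS with FGF18. Rab3gap1 encodes the catalytic subunit of the Rab3 GTPase-activating complex and was at 13.1, 9.57 and 14.8 CPM in WT RCS and 2.64, 2.66 and 4.61 CPM in FGFR3/4KO RCS, a difference of -1.84 ± 0.50 (adjusted p = 0.00533). These knockout values rest on 2 to 5 reads, so this fold carries a large counting error. Rab3ip (Rabin8), an exchange factor for Rab8, was at 20.5, 23 and 28.3 CPM and 13.2, 4.43 and 6.45 CPM, a difference of -1.63 ± 0.39 (adjusted p = 0.00159). Neither pair overlapped. With vehicle the differences were -0.99 ± 0.57 (adjusted p = 0.266) and -0.57 ± 0.41 (adjusted p = 0.396). The partner subunit Rab3gap2 was at 4.08 to 19.8 CPM and passed in no comparison. Nor did Tbc1d1, Tbc1d15, Tbc1d20, Tbc1d23 and Tbc1d9b, the last of them the most abundant of the group at 121 to 261 CPM. Tbc1d15 was lower with FGF18 in FGFR3/4KO RCS without overlap, -0.39 ± 0.19 (adjusted p = 0.755). Tbc1d25, not tested, was at 1.91 to 19.8 CPM.

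Of the 9 SNAREs and their disassembly factors, Stx17 passed with FGF18 in WT RCS. Stx17 is the SNARE of completed autophagosomes and acts with Snap29 in their fusion with lysosomes. WT RCS had 66.7, 62.6 and 61 CPM with vehicle and 43.4, 45 and 20.9 CPM with FGF18, and FGFR3/4KO RCS had 58.2, 73.6 and 63.6 CPM and 59.3, 57.6 and 54.3 CPM. The WT FGF18 libraries were the lowest 3 of the 12, and replicate 3 was the lowest of all. The change was -0.76 ± 0.22 (adjusted p = 0.0137) in WT RCS and -0.17 ± 0.22 (adjusted p = 0.906) in FGFR3/4KO RCS, and the interaction did not pass, 0.59 ± 0.32 (adjusted p = 0.275). Without WT FGF18 replicate 3 the WT change was -0.53, adjusted p = 0.0711. Snap29 changed by 0.19 ± 0.22 (adjusted p = 0.586).

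Stx8, a SNARE of late endosomes, and Stx2, a SNARE of the plasma membrane, were lower in FGFR3/4KO RCS with FGF18, and Stx17 was higher. For Stx17, this comparison and the fall with FGF18 use the same WT FGF18 libraries. Stx2 was at 51.6, 47.8 and 37 CPM in WT RCS and 23.7, 26.6 and 11.1 CPM in FGFR3/4KO RCS, a difference of -1.18 ± 0.31 (adjusted p = 0.00447), which was lost without FGFR3/4KO FGF18 replicate 3 (-0.82, adjusted p = 0.0573). The call of Stx8 was lost by DESeq2 (-1.02, adjusted p = 0.108) and without WT FGF18 replicate 1 (-0.80, adjusted p = 0.124) or FGFR3/4KO FGF18 replicate 1 (-0.84, adjusted p = 0.0736), and that of Stx17 by DESeq2 (0.64, adjusted p = 0.0925), upper-quartile normalization (0.56, adjusted p = 0.0540), with only the groups compared (0.62, adjusted p = 0.0794) and without WT FGF18 replicate 3 (0.40, adjusted p = 0.152), FGFR3/4KO FGF18 replicate 1 (0.61, adjusted p = 0.0536) or FGFR3/4KO FGF18 replicate 2 (0.61, adjusted p = 0.0759). Over the 12 libraries Stx8 ranged from 7.91 to 30.3 CPM. No SNARE passed between genotypes with vehicle. Napa, the alpha-SNAP that with the ATPase Nsf takes spent SNARE complexes apart, was the most abundant of the group at 39.7 to 70.2 CPM, and Napa, Nsf, Snap29, Vamp4, Stx6 and Stx16 passed in no comparison.

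Clathrin itself did not pass in any comparison, whereas a subunit of each of the adaptors AP-1 and AP-2 did. Cltc was at 409 to 586 CPM over the 12 libraries and changed by 0.03 ± 0.14 (adjusted p = 0.906) with FGF18 in WT RCS. Ap1s1, the small subunit of AP-1, which forms clathrin carriers at the trans-Golgi and endosomes, was at 268, 289.6 and 289 CPM with vehicle and 344, 506 and 525 CPM with FGF18 in WT RCS. In FGFR3/4KO RCS it was at 306, 357 and 316 CPM and 530.0, 324 and 315 CPM, where replicate 1 with FGF18 alone was high. The change was 0.69 ± 0.17 (adjusted p = 0.00370) in WT RCS, a 1.62-fold rise, and 0.26 ± 0.18 (adjusted p = 0.817) in FGFR3/4KO RCS. The interaction did not pass, -0.44 ± 0.25 (adjusted p = 0.297).

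Ap2m1, the medium subunit of AP-2, the adaptor of endocytosis, passed between genotypes and did not pass with FGF18. It was at 271, 237 and 269 CPM and 293, 300.4 and 287 CPM in WT RCS with vehicle and FGF18, and at 453, 482 and 460.3 CPM and 393, 456 and 485 CPM in FGFR3/4KO RCS. All knockout libraries were above all WT libraries, by 0.84 ± 0.13 (adjusted p = 4.53e-05) with vehicle and 0.60 ± 0.12 (adjusted p = 3.93e-04) with FGF18. FGF18 changed it by 0.18 ± 0.13 (adjusted p = 0.333) in WT RCS. Ap4s1, not tested, was at 3.83 to 13 CPM.

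The sorting nexins, which bind phosphoinositides and sort cargo on endosomes, held the largest FGF18 rise of the 58. Snx12 was at 39.1, 23.1 and 15 CPM with vehicle and 71.3, 63.1 and 85 CPM with FGF18 in WT RCS. In FGFR3/4KO RCS it was at 36.8, 42.5 and 40.5 CPM and 62, 53.2 and 40.5 CPM. The 3 highest libraries of the 12 were those of WT RCS with FGF18, while the knockout groups overlapped, the lowest FGF18 library being at 40.5 CPM and the highest vehicle library at 42.5 CPM. The rise in WT RCS was 1.55 ± 0.26 (adjusted p = 6.31e-05), or 2.93-fold, against 0.37 ± 0.27 (adjusted p = 0.827) in FGFR3/4KO RCS, with an interaction of -1.18 ± 0.38 (adjusted p = 0.0433). The rise passed under all 8 alternatives with every library and in all 6 fits that left out 1 library of the groups compared. The interaction was lost by DESeq2 (-1.15, adjusted p = 0.0973), with a replicate block (-1.18, adjusted p = 0.0573) and in 10 of 12 fits that left out 1 library, with values of -0.85 to -1.24 and adjusted p of 0.0524 to 0.193, and kept without WT vehicle replicate 1 or FGFR3/4KO FGF18 replicate 1.

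Snx8, a sorting nexin of early endosomes that acts in transport to the Golgi, was the most abundant of the group. It was at 351, 369.9 and 297 CPM and 390.2, 455 and 578 CPM in WT RCS, and at 513, 516 and 434 CPM and 588, 410.3 and 548 CPM in FGFR3/4KO RCS. It rose with FGF18 by 0.48 ± 0.15 (adjusted p = 0.0212) in WT RCS and was higher in FGFR3/4KO RCS with vehicle by 0.52 ± 0.16 (adjusted p = 0.0251). Neither its FGF18 change in FGFR3/4KO RCS nor the interaction passed. The rise was lost without WT vehicle replicate 3 (0.39, adjusted p = 0.139) or WT FGF18 replicate 3 (0.31, adjusted p = 0.156), and the genotype call in 4 of 6 fits that left out 1 library, with values of 0.43 to 0.55 and adjusted p of 0.0573 to 0.140, and kept without WT vehicle replicate 2 or FGFR3/4KO vehicle replicate 3. Both comparisons use the same WT vehicle libraries.

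Snx4 and Snx5 differed between genotypes in opposite directions. Snx4, which acts in recycling from early endosomes and in autophagy, was at 65.2, 62.6 and 67 CPM and 76.2, 74.6 and 77.6 CPM in WT RCS with vehicle and FGF18, and at 153, 139 and 172 CPM and 185, 183 and 151 CPM in FGFR3/4KO RCS. No knockout library came below 139 CPM and no WT library above 77.6 CPM, and the difference was 1.27 ± 0.17 (adjusted p = 5.63e-06) with vehicle and 1.18 ± 0.15 (adjusted p = 8.82e-07) with FGF18. Snx5, which acts in transport from endosomes to the Golgi, was at 320.3, 399.8 and 327 CPM and 304, 404 and 437 CPM in WT RCS, and at 262, 232 and 224 CPM and 250.5, 228 and 224 CPM in FGFR3/4KO RCS. It was lower there, with a difference of -0.54 ± 0.15 (adjusted p = 0.0146) with vehicle and -0.70 ± 0.14 (adjusted p = 3.68e-04) with FGF18, and the vehicle call was lost without WT vehicle replicate 2 (-0.43, adjusted p = 0.106) or FGFR3/4KO vehicle replicate 3 (-0.49, adjusted p = 0.0845). Snx6, its relative, was at 21.1 to 63.9 CPM and passed in no comparison.

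Of the 2 ESCRT genes, Vps37b, a subunit of ESCRT-I, was higher in FGFR3/4KO RCS with vehicle. It was at 34.8, 24.5 and 32 CPM in WT RCS and 56.7, 56.7 and 54.8 CPM in FGFR3/4KO RCS, a difference of 0.87 ± 0.23 (adjusted p = 0.0107), lost without WT vehicle replicate 2 (0.75, adjusted p = 0.0607). With FGF18 the levels were 38.5, 45 and 37 CPM and 47.5, 51.4 and 52.5 CPM, a difference of 0.33 ± 0.20 (adjusted p = 0.226). Chmp6, a subunit of ESCRT-III, was at 31.9 to 69 CPM and passed in no comparison. Among the 6 genes that match by name and have another known role, Sec14l2, which binds tocopherol and other lipids, rose with FGF18 in WT RCS. It was at 8.7, 15 and 14 CPM with vehicle and 19.7, 38.3 and 38.2 CPM with FGF18, and at 21.4, 5.67 and 2.19 CPM and 13.2, 21.3 and 15.7 CPM in FGFR3/4KO RCS. The WT groups did not overlap, and the change was 1.30 ± 0.42 (adjusted p = 0.0224) there and 0.82 ± 0.51 (adjusted p = 0.809) in FGFR3/4KO RCS. The interaction did not pass. The WT call was lost by DESeq2 (1.33, adjusted p = 0.0712) and in 4 of 6 fits that left out 1 library, with values of 1.11 to 1.39 and adjusted p of 0.0640 to 0.103, and kept without WT vehicle replicate 2 or WT FGF18 replicate 1. Sec14l1, the most abundant of these 6 at 68 to 119 CPM, passed in no comparison, nor did Snapc2, Arl6ip4, Arl14ep and Arl6ip6.

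**Figure D2:**
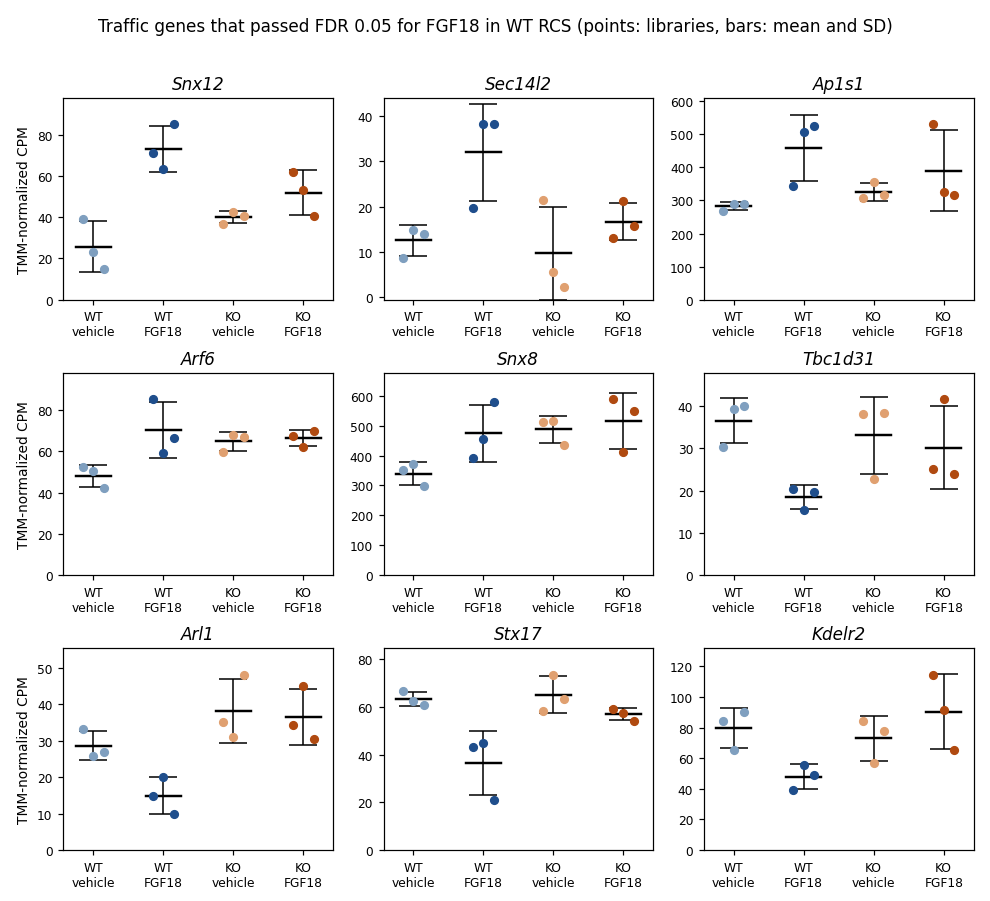
TMM-normalized CPM (y axis) of the 9 traffic genes that passed with FGF18 in WT RCS, by group (x axis, 3 libraries each), with points for libraries and bars for the mean and SD. For each gene the WT libraries with FGF18 do not overlap the WT libraries with vehicle. The 2 groups of FGFR3/4KO RCS overlap for each of the 9.

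Without FGF18, 12 of the 58 traffic genes passed between FGFR3/4KO RCS and WT RCS (20.7%), against 14.1% of all genes tested. Higher were Snx4, Vps37b, Ap2m1, Copa, Snx8, Sec63 and Arl8a (background 8%), and lower were Tmed4, Trappc5, Rab21, Ergic2 and Snx5 (background 6.07%). With FGF18 it was 18 of 58 (31%), against 33.9% of all genes, with 10 higher (Arl1, Snx4, Kdelr2, Tmed7, Copa, Rab5b, Stx17, Ap2m1, Sec63 and Arl8a, background 16.9%) and 8 lower (Tmed4, Rab3gap1, Rab3ip, Stx2, Stx8, Snx5, Ergic2 and Trappc5, background 17%). The interaction passed for Kdelr2, where it was positive (background 5.91%), and Snx12, where it was negative (background 4.96%), 2 of 58 against 10.9% of all genes. The genotype comparisons with vehicle and with FGF18 rest on different libraries but on the same clone. In both of these, 9 genes passed, each in the same direction, which is 75% of the 12 and 50% of the 18. Over all genes the overlap was 641 genes, 61.8% of 1038 and 25.6% of 2500, and 581 of the 641 had the same direction. The 3 that passed with vehicle alone were Snx8, Vps37b and Rab21, whose difference with FGF18 was on the same side. All 12 vehicle calls thus kept their side with FGF18, where 850 of 1038 did over all genes. Each genotype comparison shares its WT libraries with the FGF18 comparison in WT RCS, where Snx8 (vehicle) and Arl1, Kdelr2 and Stx17 (FGF18) also passed. The median difference of the 58 was -0.05 with vehicle and -0.02 with FGF18, where that of all genes was -0.01 and -0.03. Without overlap between the genotypes were 18 of the 58 with vehicle (12 higher, 6 lower, background 34.2%) and 25 with FGF18 (14 higher, 11 lower, background 42%). Chondrocyte markers differed between the genotypes too, 4 of the 5 tested with vehicle and 5 of 5 with FGF18. Fmod was higher in FGFR3/4KO RCS by 1.01 ± 0.13 (adjusted p = 5.60e-06) and 1.79 ± 0.13 (adjusted p = 7.01e-11), and Col11a2 by 0.40 ± 0.13 (adjusted p = 0.0414) and 0.44 ± 0.13 (adjusted p = 0.0100). Sox9 was higher with FGF18 by 0.54 ± 0.12 (adjusted p = 7.71e-04), against 0.31 ± 0.12 (adjusted p = 0.0772) with vehicle. Lower were Mia, with -0.35 ± 0.11 (adjusted p = 0.0380) and -0.72 ± 0.11 (adjusted p = 1.61e-05), and Chad, with -2.23 ± 0.68 (adjusted p = 0.0251) and -1.42 ± 0.42 (adjusted p = 0.00968), at 3.06, 2.83 and 1.1 CPM in FGFR3/4KO RCS with vehicle. The vehicle values of Chad in FGFR3/4KO RCS are below the floor of 3 reads, so its vehicle fold carries a large counting error. The part of the marker differences in the results for traffic genes was not tested.

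**Figure D3:**
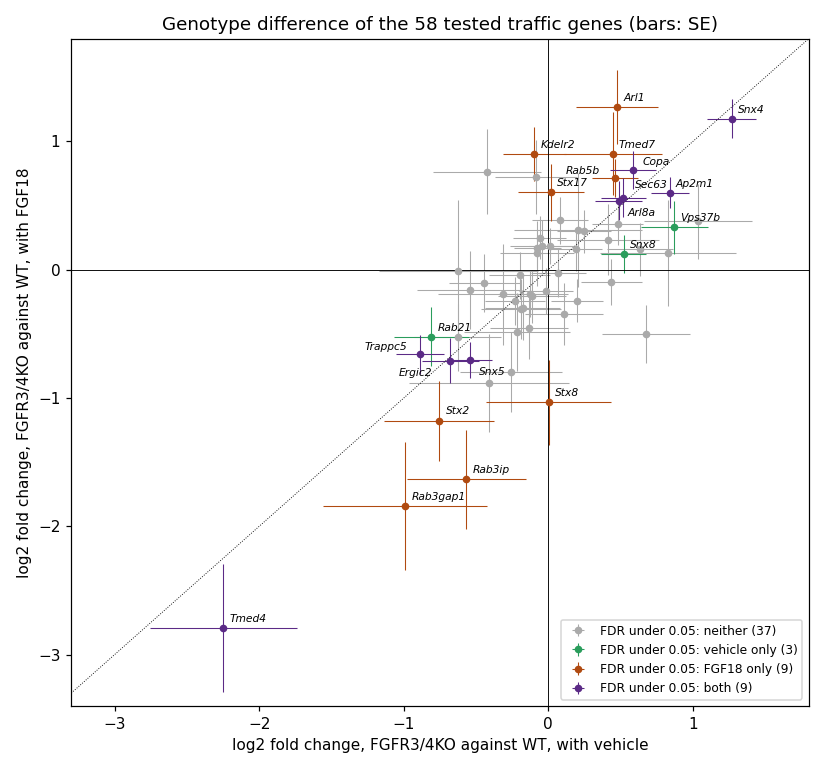
Log2 fold change of FGFR3/4KO against WT RCS with vehicle (x axis) and with FGF18 (y axis) for the 58 tested traffic genes, with bars of 1 SE and a dotted line of equal change. The 9 genes that passed in both comparisons (purple) lie along the line from Tmed4 (-2.25 and -2.79) to Snx4 (1.27 and 1.18), 9 passed with FGF18 only (orange), 3 with vehicle only (green) and 37 in neither (grey).

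**Figure D4:**
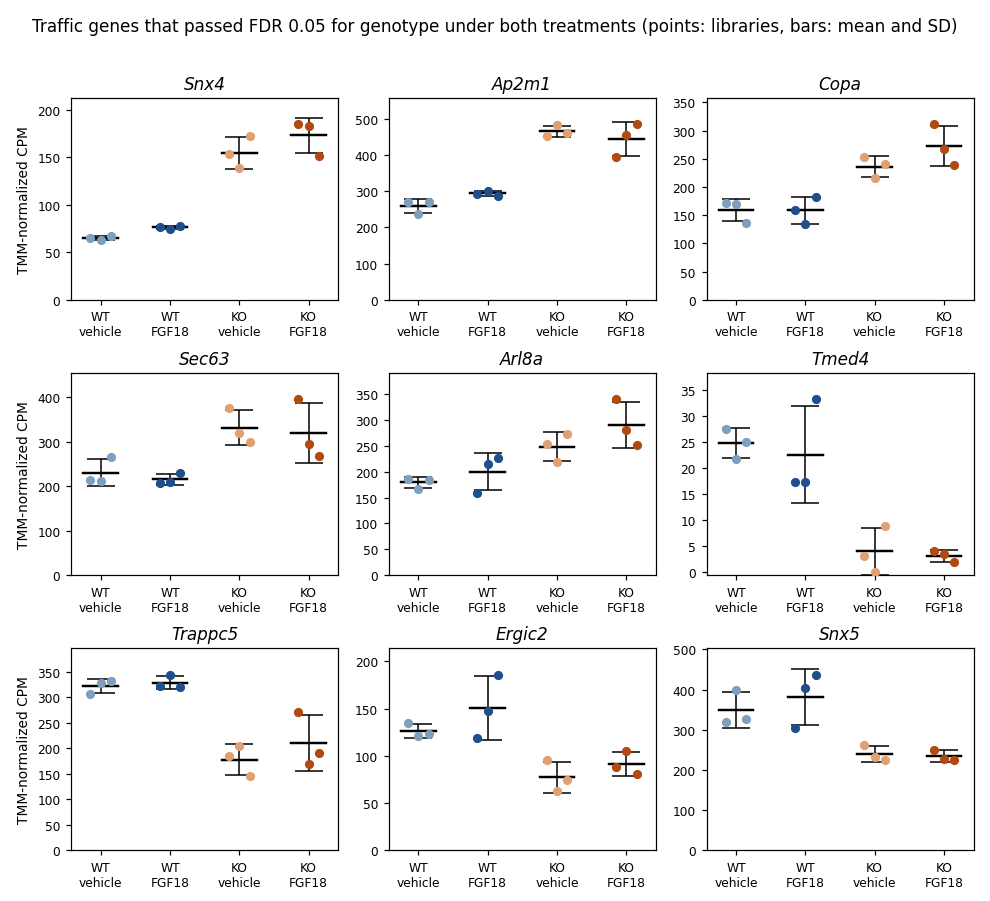
TMM-normalized CPM (y axis) by group (x axis, 3 libraries each) of the 9 traffic genes that passed between genotypes under both treatments, with points for libraries and bars for the mean and SD. For each gene the 3 knockout libraries lie on one side of the 3 WT libraries under both treatments.

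Of 44 other genes of the same routes whose symbols fall outside the rule, 37 were tested. In WT RCS, 7 passed with FGF18 (18.9%, background 25.7%), of which Rtn4, Borcs6, Evi5 and Cog1 rose and Get4, Trip11 and Arfgef1 fell. Rtn4, which shapes ER tubules, rose by 0.62 ± 0.14 (adjusted p = 0.00120), and Evi5, a Rab GTPase-activating protein, by 0.79 ± 0.24 (adjusted p = 0.0155). Get4, which passes tail-anchored proteins to the ER membrane, fell, with a change of -0.50 ± 0.14 (adjusted p = 0.00959). Trip11, a golgin of the cis-Golgi, changed by -0.76 ± 0.22 (adjusted p = 0.00996), and Arfgef1, an exchange factor for Arfs at the Golgi, by -0.50 ± 0.16 (adjusted p = 0.0252). Borcs6, part of the complex that brings Arl8 to lysosomes, rose by 0.85 ± 0.28 (adjusted p = 0.0248). None passed in FGFR3/4KO RCS by edgeR or at an unadjusted p under 0.05. The median in WT RCS was 0.19. DESeq2 did not call Evi5 (0.78, adjusted p = 0.0583), Borcs6 (0.85, adjusted p = 0.104) or Arfgef1 (-0.50, adjusted p = 0.0705), and Arfgef1 was also lost with no filter (-0.51, adjusted p = 0.0505). With edgeR, Evi5 was lost without WT vehicle replicate 3 (0.60, adjusted p = 0.130) or WT FGF18 replicate 2 (0.67, adjusted p = 0.0822), Trip11 without WT vehicle replicate 2 (-0.69, adjusted p = 0.0505) or WT vehicle replicate 3 (-0.62, adjusted p = 0.0907) and Get4 without WT vehicle replicate 1 (-0.42, adjusted p = 0.0652) or WT FGF18 replicate 1 (-0.40, adjusted p = 0.0617). Arfgef1 was lost in 4 of 6 fits that left out 1 library, with values of -0.43 to -0.52 and adjusted p of 0.0525 to 0.104, and kept without WT vehicle replicate 1 or WT FGF18 replicate 3, and Borcs6 in 4 of 6 fits that left out 1 library, with values of 0.72 to 0.82 and adjusted p of 0.0541 to 0.111, and kept without WT vehicle replicate 3 or WT FGF18 replicate 2.

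Between genotypes, 3 of the 37 passed with vehicle (8.11%, background 14.1%) and 7 with FGF18 (18.9%, background 33.9%). Each comparison shares its WT libraries with the FGF18 comparison in WT RCS, where Evi5, Rtn4, Arfgef1 and Borcs6 had also passed. With vehicle Evi5 was higher in FGFR3/4KO RCS by 1.11 ± 0.25 (adjusted p = 0.00262), Rtn4 by 0.57 ± 0.14 (adjusted p = 0.00603) and Sacm1l, a phosphoinositide phosphatase of the ER and Golgi, by 0.59 ± 0.20 (adjusted p = 0.0436). With FGF18, Arfgef1 was at 69.7, 72.7 and 73.9 CPM in WT RCS and 145, 158 and 147 CPM in FGFR3/4KO RCS, higher by 1.06 ± 0.15 (adjusted p = 5.17e-06). Sacm1l was higher by 0.83 ± 0.18 (adjusted p = 7.86e-04), Sft2d2, a Golgi membrane protein, by 0.54 ± 0.14 (adjusted p = 0.00288) and Cnih4, a cargo receptor of the ER, also passed upward. The other three were lower, Borcs6 with a difference of -1.21 ± 0.28 (adjusted p = 0.00134), Rabep1, an effector of Rab5, with -0.57 ± 0.16 (adjusted p = 0.00630), and Hps4, a subunit of BLOC-3, with -0.91 ± 0.29 (adjusted p = 0.0160). The Sacm1l call with vehicle was lost by DESeq2 (0.58, adjusted p = 0.0903), upper-quartile normalization (0.56, adjusted p = 0.0528), with a replicate block (0.57, adjusted p = 0.0760) and in 4 of 6 fits that left out 1 library, with values of 0.40 to 0.66 and adjusted p of 0.0603 to 0.268, and kept without WT vehicle replicate 2 or FGFR3/4KO vehicle replicate 2. The Hps4 call was lost by DESeq2 (-0.90, adjusted p = 0.107) and without WT FGF18 replicate 2 (-0.73, adjusted p = 0.106), FGFR3/4KO FGF18 replicate 1 (-0.82, adjusted p = 0.0518) or FGFR3/4KO FGF18 replicate 3 (-0.68, adjusted p = 0.115).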

How the data were processed

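The 12 libraries (QuantSeq 3′ mRNA) cover both genotypes under both treatments. Trimming was done with Trim Galore, alignment to rn6 with STAR and counting with htseq-count, and the authors deposited raw counts per gene for each library. Gencode v19 is the gene model that the methods name, whereas the identifiers are rat Ensembl identifiers. Tool versions and the strand setting of the counting are not given in the sources used here, so reads of overlapping genes on opposite strands cannot be told apart.

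From the counts, edgeR 4.0.16 in R 4.3.3 was used for all 12 libraries in one model with a mean per group. The filterByExpr function (minimum count 10, minimum total 15) kept 7378 of 32754 genes. Libraries were normalized by TMM, the quasi-likelihood test was used, and p-values were adjusted by Benjamini-Hochberg, with a threshold of 0.05. SEs were derived from the fold change and the test's F statistic. The comparisons were FGF18 against vehicle in each genotype, their interaction, and FGFR3/4KO against WT RCS under each treatment. Alternatives were the likelihood-ratio test, DESeq2 1.42.0, upper-quartile and relative log expression normalization, leaving out each library, adding a replicate block, fitting only the groups compared, applying no filter, and a filter at 1 CPM in at least 3 libraries. A fit that left out 1 library was scored only in the comparisons that use that library. The test was also run on simulated counts drawn with the same spread in every group. That run cannot show how the test behaves where groups differ in spread.

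Names came from the identifier and symbol pairs of a supplementary table of the study, used here in part (1998 identifiers, in identifier order). Start regions came from RefSeq (GRCr8), matched by symbol. Genes named in a comparison are those with an FDR under 0.05, in role groups also the most abundant one. Where over 15 passed, the 15 with the smallest FDR carry values. Of the other traffic genes, up to 6 per comparison carry values. The genes, role groups and lists were chosen with earlier results of these data known. Replicates are biological replicates by their labels. Counting floors cover counting error only, since no molecular identifiers are named in the sources used here.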

Additional observations from a re-analysis of the deposited data

Results flagged for a closer look

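The response to FGF18 differed between WT RCS and FGFR3/4KO RCS, by the interaction term of edgeR's quasi-likelihood test, for 2 of the 58 traffic genes, where 10.9% of all genes passed. For Kdelr2 the interaction was 1.0 ± 0.30 on the log2 scale (adjusted p = 0.0317), with a fall in WT RCS and no call in FGFR3/4KO RCS. For Snx12 it was -1.18 ± 0.38 (adjusted p = 0.0433), with a rise in WT RCS and no call in FGFR3/4KO RCS. Kdelr2 was lost by DESeq2 (1.03, adjusted p = 0.0641) and in 7 of 12 fits that left out 1 library, with values of 0.85 to 1.07 and adjusted p of 0.0540 to 0.105, and kept without WT vehicle replicate 2, WT FGF18 replicate 2, WT FGF18 replicate 3, FGFR3/4KO vehicle replicate 1 or FGFR3/4KO FGF18 replicate 3. Snx12 was lost by DESeq2 (-1.15, adjusted p = 0.0973), with a replicate block (-1.18, adjusted p = 0.0573) and in 10 of 12 fits that left out 1 library, with values of -0.85 to -1.24 and adjusted p of 0.0524 to 0.193, and kept without WT vehicle replicate 1 or FGFR3/4KO FGF18 replicate 1. Among the 37 other traffic genes tested, 4 passed the interaction. It was -1.21 ± 0.33 for Evi5 (adjusted p = 0.0169), 0.72 ± 0.22 for Arfgef1 (adjusted p = 0.0347), 0.65 ± 0.20 for Get4 (adjusted p = 0.0390) and -0.58 ± 0.19 for Rtn4 (adjusted p = 0.0493). In WT RCS, Evi5 was at 31.9, 39.4 and 24 CPM with vehicle and 50.01, 62.2 and 50.5 CPM with FGF18, and in FGFR3/4KO RCS at 88.9, 53.8 and 58.1 CPM and 47.5, 54.9 and 49.7 CPM. Rtn4 was at 169.6, 171 and 198 CPM and 305, 248 and 276 CPM in WT RCS, and at 264, 269 and 271 CPM and 253, 297 and 272 CPM in FGFR3/4KO RCS. Get4 was at 243, 201 and 208 CPM and 133, 163 and 166 CPM in WT RCS, and at 161, 181 and 161 CPM and 189.8, 179 and 184 CPM in FGFR3/4KO RCS. Evi5 was lost without WT vehicle replicate 3 (-1.01, adjusted p = 0.0771), WT FGF18 replicate 2 (-1.06, adjusted p = 0.0606) or FGFR3/4KO vehicle replicate 1 (-0.94, adjusted p = 0.103). Arfgef1, Get4 and Rtn4 were lost by DESeq2 (0.74, adjusted p = 0.0694, 0.66, adjusted p = 0.0511 and -0.57, adjusted p = 0.0668). With a replicate block the adjusted p was 0.0546 for Arfgef1, 0.0646 for Get4 and 0.0788 for Rtn4. With no filter the adjusted p was 0.0548 for Arfgef1, 0.0508 for Get4 and 0.141 for Rtn4, and Rtn4 was lost with relative log expression normalization (-0.58, adjusted p = 0.0511) and the filter of 1 CPM in 3 libraries (-0.52, adjusted p = 0.126). Arfgef1 was also lost in 6 of 12 fits that left out 1 library, with values of 0.65 to 0.77 and adjusted p of 0.0505 to 0.106, Get4 in 7 of 12 fits that left out 1 library, with values of 0.55 to 0.70 and adjusted p of 0.0512 to 0.115, and kept without WT FGF18 replicate 2, WT FGF18 replicate 3, FGFR3/4KO vehicle replicate 2, FGFR3/4KO FGF18 replicate 1 or FGFR3/4KO FGF18 replicate 3, and Rtn4 in 12 of 12 fits that left out 1 library, with values of -0.49 to -0.66 and adjusted p of 0.0527 to 0.126.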

How the results depend on the processing

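The counts of traffic genes that passed in FGFR3/4KO RCS with FGF18 (0), between genotypes with vehicle (10 to 16) and with FGF18 (15 to 20), and in WT RCS with FGF18 (6 to 11) stayed within 1.5 times of the reported counts under all alternatives that kept every library. For the interaction, 2 genes passed as reported, 0 by DESeq2 and 1 with the replicate block. A model of the compared groups alone does not apply to the interaction, which uses all 4. Leaving out 1 library gave 3 to 9 genes for FGF18 in WT RCS, 0 to 0 in FGFR3/4KO RCS, 0 to 2 for the interaction, 7 to 12 between genotypes with vehicle and 16 to 21 with FGF18. The low counts were 3 without WT vehicle replicate 3 and 5 without WT FGF18 replicate 3 for FGF18 in WT RCS, and 7 without WT vehicle replicate 2 or FGFR3/4KO vehicle replicate 1 between genotypes with vehicle, with fewer samples in each such fit. Calls that no alternative removed were Snx12 and Ap1s1 for FGF18 in WT RCS (2 of 9), Ap2m1, Snx4, Tmed4 and Trappc5 between genotypes with vehicle (4 of 12), 13 of 18 with FGF18, and 0 of 2 for the interaction. Over the 60 calls of named genes and 870 refits, 712 kept the call, 158 lost it and 0 changed direction. Whether the replicate numbers mark pairs could not be settled from these counts. Libraries with the same number correlated by -0.03 on average in their deviations from the group means (18 pairs, -0.21 to 0.05). Others correlated by 0.02 (36 pairs, -0.11 to 0.19). Counting error weighs on such deviations at this depth, so a value near 0 cannot exclude pairs. With the replicate block 54 of the 60 calls passed (not the interactions of Snx12, Arfgef1, Get4 and Rtn4 or the vehicle genotype calls of Arl8a and Sacm1l). The counts were then 9, 0, 11 and 18 where 9, 0, 12 and 18 were reported. Depth limits the low genes. Before TMM normalization 3 reads correspond to 2.51 to 8.02 CPM, and 14 of the 61 genes had a mean under 20 CPM. The cause of a lost call was not tested.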
